A study of Labrus bergylta with 24 samples.

Results

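The comparison described here sets 6 ballan wrasse fed soyasaponin against 6 fed the reference diet, 12 of the 24 fish in the series, chosen by their treatment labels. Ballan wrasse, Labrus bergylta, is a stomachless marine fish used as a cleaner fish. All fish spent 4 weeks on the reference diet. They were then fed for 5 weeks on that diet unchanged (control), with 0.7% soyasaponin (soyasaponin), with 0.4% of a commercial prebiotic (prebiotic) or with soyasaponin and prebiotic at those same inclusions (combined), 6 fish per diet. Each diet went to 2 tanks. As the diets were given by tank, not by fish, diet and tank cannot be told apart. Which fish came from which tank is not recorded in the labels either. Messenger RNA of the hindgut was sequenced, one library per fish. The labels do not give the age, sex or size of the fish. The question put by the comparison is what the saponin, given without prebiotic, changes in hindgut transcripts.

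Soyasaponins are triterpenoid glycosides of soybean. Their amphiphilic structure lets them interact with membrane sterols, and in Atlantic salmon they have been linked, together with other components of soybean meal, to inflammation of the distal intestine. The fish hindgut takes up macromolecules by endocytosis and holds many immune cells, which is why it is the segment usually examined for responses to plant feed ingredients.

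The deposited table lists 20751 transcripts by identifiers that carry no gene names, and 0 of them are found in the RefSeq gene table of the fLabBer1.1 assembly. The identity of the tissue could therefore not be checked against marker genes, and no pathway can be named. In bulk tissue, fewer cells of a type and less RNA per cell cannot be told apart. Recovered reads were 8.42 to 12.5 M (mega) per library in control and 9.38 to 11.2 M in soyasaponin fish, and values below are normalized counts, which are reads divided by a size factor per library. Each fish counts as a replicate, although a shared tank may make fish alike.

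In soyasaponin fish 47 transcripts rose and 121 fell (limma, Benjamini-Hochberg adjusted p under 0.05), together 0.985% of the 17056 tested, which are those with a mean of at least 10 normalized counts over the 24 fish, 0.276% higher and 0.709% lower. The risen transcripts were mostly abundant ones with modest changes. Their mean over the 12 fish had a median of 605 normalized counts, against 134 for all tested, and 39 of the 47 rose by less than 2-fold, with log2 fold changes (soyasaponin minus control, on the log2(normalized count + 1) scale) of 0.29 to 3.41. The fallen ones lay close to the bulk of transcripts in abundance, with a median of 115, and moved further, with log2 fold changes of -2.53 to -0.36 and 61 of 121 at 2-fold or more. In the top tercile of transcripts by abundance, above a mean of 272, there were 33 risen and 40 fallen transcripts. In the bottom tercile, below 67.6, there were 2 risen and 40 fallen. The median SE of the log2 fold change was 0.11 for the risen and 0.21 for the fallen transcripts, beside 0.20 for all tested.

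**Figure D1:**
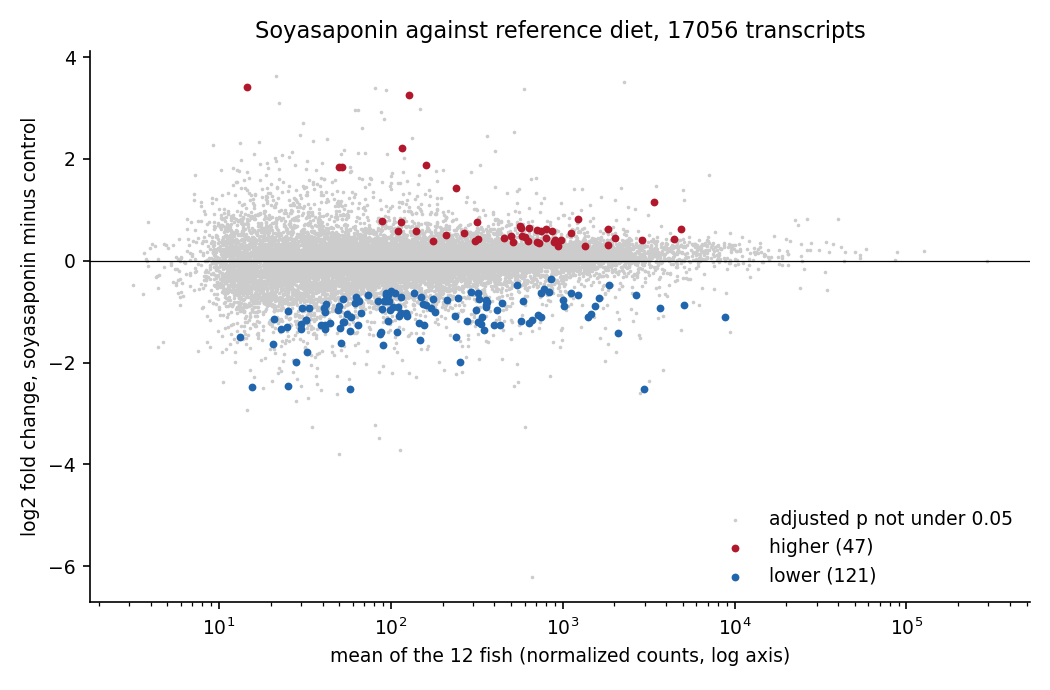
Log2 fold change, soyasaponin minus control, of each of the 17056 tested transcripts (y axis) against its mean over the 12 fish in normalized counts (x axis, log scale). The 47 risen transcripts (red) lie mostly at higher abundance, at 0.29 to 3.41 with a median of 0.55. The 121 fallen ones (blue) are spread over the range of abundance, with the lowest at -2.53.

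No difference between the 2 diets was detected in 6 library measures: read depth, detection, 3 shares of abundant transcripts and spread within a diet. These measures do not compare the expression profiles of the diets. Of the 17056 tested transcripts, 16978 ± 41.1 had at least 1 read in control and 16980 ± 21.2 in soyasaponin fish (SD, n = 6 each). The most abundant transcript held 3.43 ± 1.38% of the counts in control and 3.05 ± 0.863% in soyasaponin fish, and the 100 most abundant held 26.8 ± 1.99% and 26.9 ± 1.80% (SD, n = 6 each). How far a fish lay from the mean of its own diet, in log2 units over all tested transcripts, was 79.0 ± 5.93 and 78.4 ± 13.5. Over 6 such measures the lowest exact two-sided permutation p was 0.558, and the adjusted p was 0.948 for each.

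None of the 10 most abundant, with means of 43233 to 294510 normalized counts over the 12 fish, passed the test. Their log2 fold changes ran from -0.0075 to 0.22, and the lowest and highest bounds of their 95% intervals were -0.78 and 0.77. Among the 100 most abundant 0 passed with limma at an adjusted p under 0.05, where 0.985% of all tested passed. At that share, sets of 10 or 100 would hold few or no calls, so these counts do not set abundant transcripts apart. The smallest adjusted p of the 100 was 0.0642 in limma, and 22 had an unadjusted p under 0.05. Among the 1000 most abundant 7 rose and 9 fell, where 0.276% of all tested rose and 0.709% fell. An unadjusted p under 0.05 in limma was reached by 2730 of the 17056 (16.0%), 1271 higher and 1459 lower. Over all 17056 the median log2 fold change was 0.02, and the quartiles were -0.19 and 0.18. The median half-width of the 95% interval was 0.42. That interval lay wholly inside a 2-fold change in either direction for 12481 transcripts (73.2%) and inside a 1.5-fold change for 7658 (44.9%).

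Most large estimated differences were not called. A difference of at least 2-fold was estimated for 714 transcripts, 279 higher and 435 lower, and 69 of them passed the test. The 645 that did not pass had a median SE of 0.68, against 0.28 for the 69 that did. The test weighs each difference against its SE, so the call itself favours this. The largest estimated difference of all, a log2 fold change of -6.22 with an SE of 1.81, had an adjusted p of 0.0841 in limma. The largest estimated rise, 3.63 with an SE of 1.31, had an adjusted p of 0.164 in limma. Over all 20751 transcripts, tested or not, none had reads in all 6 fish of one diet and 0 in all 6 of the other. In each diet 7 of the 20751 had reads in some fish while the 6 fish of the other diet had 0. These reads reached at most 4 of 6 soyasaponin fish and 5 of 6 control fish. Of the 7 with reads in soyasaponin fish, 0 were among the 17056 tested, and of the 7 with reads in control fish, 1 was. A value of 0 allows up to 3 reads per library, by counting error only.

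The control and soyasaponin fish did not overlap in 216 of the 17056 transcripts (1.27%), 69 higher (0.405%) and 147 lower (0.862%) in soyasaponin fish. Over all tested transcripts edgeR called 1.13% and DESeq2 3.58%. On the same fish, edgeR also called 38 of the 47 risen and 110 of the 121 fallen transcripts, and DESeq2 46 and 120. Control and soyasaponin values were fully separated for 22 risen and 53 fallen transcripts, which the call itself favours. All 3 tools (limma, edgeR and DESeq2, each at an adjusted p under 0.05) and the absence of overlap were met by 19 risen and 52 fallen transcripts. The 4 transcripts described next are the 2 largest rises and 2 largest falls among those called by limma and edgeR, without overlap and with a mean of at least 50 over the 12 fish. The absence of overlap is therefore part of how they were chosen.

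LABE_00058622-RA had the largest rise under that rule. Its normalized count was 8.09 at lowest, 20.3 at the median and 40.1 at highest in control fish, and 91.3, 177 and 614 in soyasaponin fish. The lowest soyasaponin fish thus stood above the highest control fish, and soyasaponin replicate 1 stood far above the other 5 fish of its diet. The log2 fold change was 3.25 (SE 0.63, limma adjusted p = 0.0212), with 6 of 6 soyasaponin fish higher. The estimate with prebiotic in the diet was close to this. Prebiotic fish ran from 2.35 to 43.6 and combined fish from 45.5 to 342, again without overlap, and the log2 fold change, combined minus prebiotic, was 3.23 (SE 0.63, limma adjusted p = 0.00766). The difference between these values, the interaction, was -0.02 (SE 0.89, limma adjusted p = 0.996).

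LABE_00007498-RA was raised to a more even level. Control fish held 18.2 to 66.8 normalized counts with a median of 39.3, and soyasaponin fish 120 to 303 with a median of 187. Every soyasaponin fish exceeded the highest control, and the log2 fold change was 2.21 (SE 0.44, limma adjusted p = 0.0237). The diets with prebiotic overlapped, at 19.4 to 99.7 in prebiotic and 47.5 to 435 in combined fish, where replicate 2 was the highest. Their log2 fold change was 1.02 (SE 0.44), which did not pass the test (limma adjusted p = 0.209), and the interaction was -1.18 (SE 0.63, limma adjusted p = 0.434).

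LABE_00037806-RA had the largest fall of the 121. Control fish held 34.0 to 168 normalized counts, with a median of 103, and soyasaponin fish 8.79 to 19.4, with a median of 13.7. Control replicates 3, 5 and 6 were high, the other controls lower, and the soyasaponin fish all lower still. The log2 fold change was -2.53 (SE 0.50, limma adjusted p = 0.0234), with 6 of 6 soyasaponin fish lower. Prebiotic fish ran from 21.2 to 278 and combined fish from 13.1 to 36.1, so these overlapped. The log2 fold change between them was -1.69 (SE 0.50, limma adjusted p = 0.0567), and the interaction was 0.83 (SE 0.71, limma adjusted p = 0.651).

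LABE_00062612-RA, the next fall by the rule, was low in the prebiotic fish as well. Control fish held 44.3 to 104 normalized counts, with a median of 85.9, and soyasaponin fish 16.6 to 33.4, with a median of 23.5, a log2 fold change of -1.61 (SE 0.39, limma adjusted p = 0.0455). Prebiotic fish, given no saponin, held 14.2 to 48.3, and combined fish 14.2 to 107. Prebiotic minus control, the log2 fold change was -1.22, which did not pass the test (limma adjusted p = 0.0890). The log2 fold change, combined minus prebiotic, was 0.13 (SE 0.39, limma adjusted p = 0.895). The interaction was 1.74 (SE 0.55) and did not pass the test (limma adjusted p = 0.222). The control fish had the highest mean of the 4 diets, but single prebiotic and combined fish lay within or above their range.

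**Figure D2:**
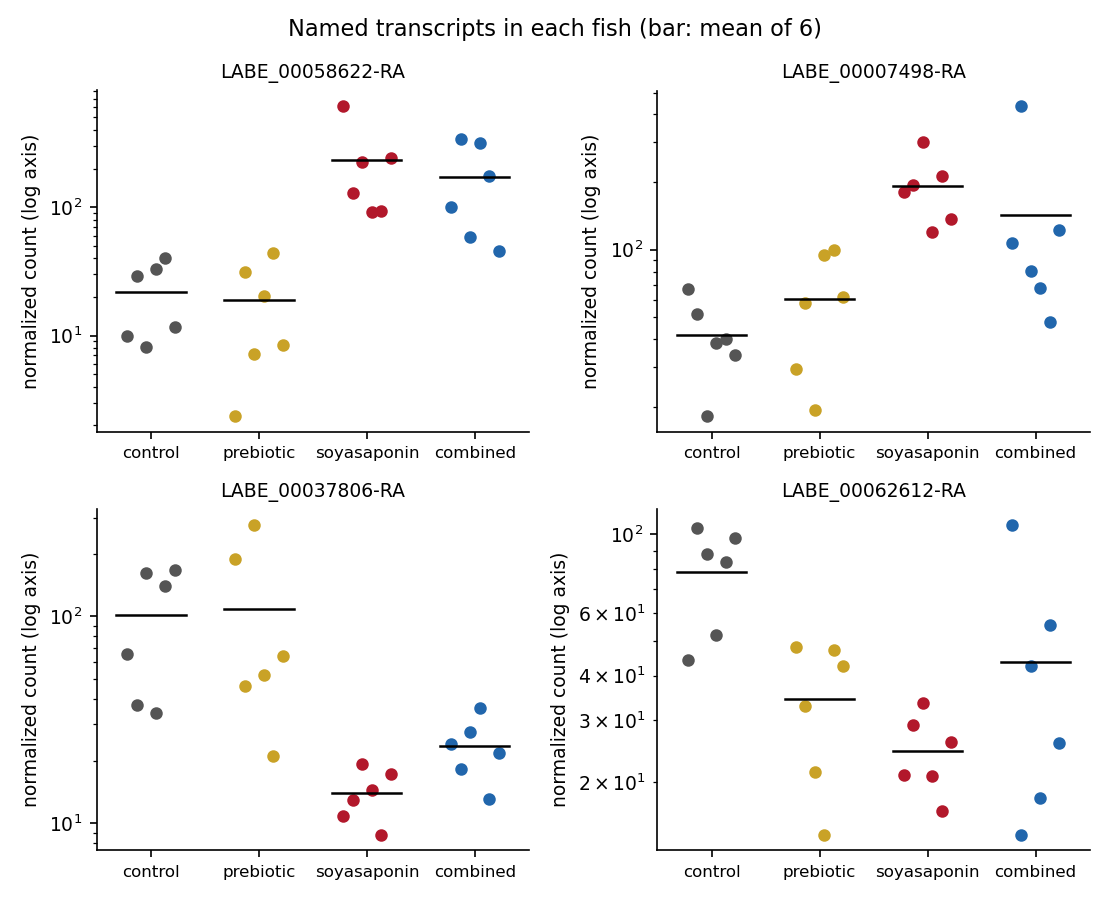
Normalized count (y axis, log scale) of the 4 named transcripts in each of the 24 fish by diet, with a bar at the mean of 6. Control and soyasaponin fish do not overlap in any panel. Prebiotic and combined fish are separated for LABE_00058622-RA, where they run from 2.35 to 43.6 and 45.5 to 342, and overlap in the other panels.

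The fish differed in how far they had moved on the called transcripts. The median log2 difference from the control mean over the 121 fallen transcripts was -1.40 in soyasaponin replicate 4, -1.16 in replicate 6, -1.11 in replicate 5 and -0.93 in replicate 1, but -0.63 and -0.59 in replicates 3 and 2. Over the 47 risen transcripts it was 0.67, 0.63 and 0.62 in replicates 6, 5 and 3, and 0.52, 0.46 and 0.41 in replicates 2, 4 and 1. The deepest fall was in replicate 4 and the strongest rise in replicate 6, which also had the next deepest fall. Replicate 5 came directly after replicate 6 on both lists. Control fish lay between -0.14 and 0.09 on the risen and between -0.14 and 0.25 on the fallen list, with control replicate 3 the highest on the latter. The lists were chosen from these fish, so these values only describe them.

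The fallen transcripts together held 0.712 to 1.16% of a control fish's counts and 0.333 to 0.521% of a soyasaponin fish's. For the risen transcripts the shares were 0.363 to 0.414% and 0.509 to 0.583%. Soyasaponin replicate 4 lay below all 6 controls in 119 of the 121 fallen transcripts and replicate 2 in 86. Of the 47 risen transcripts, soyasaponin replicate 3 and replicate 6 each lay above all controls in 44 and replicate 1 in 34. Both lists were chosen from these fish, which favours such shares and counts. The same counts over all tested transcripts were not made.

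**Figure D3:**
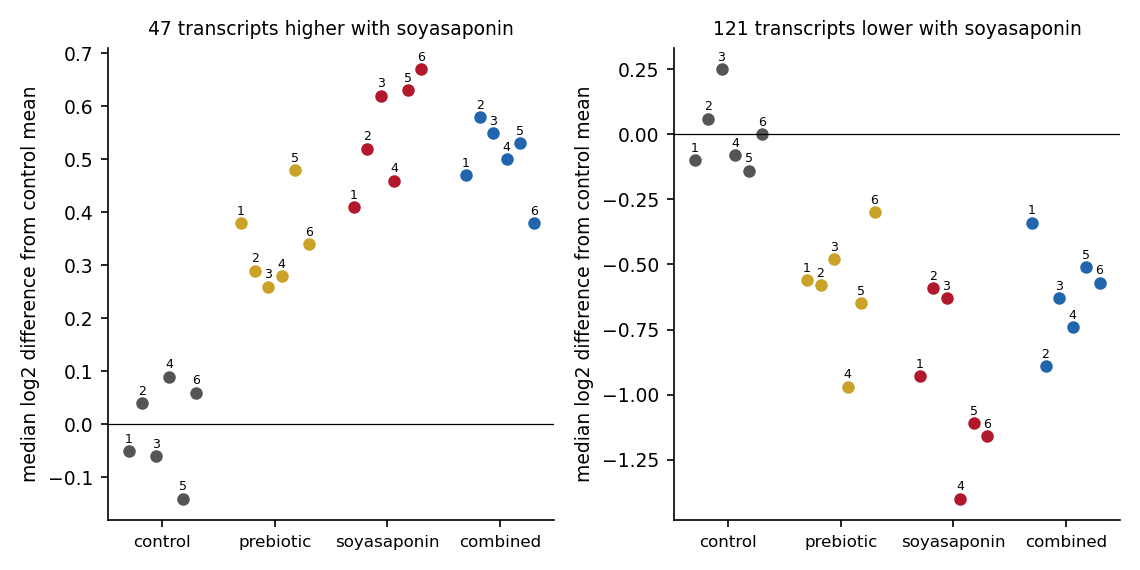
Median log2 difference of each fish from the control mean (y axis) over the 47 risen transcripts (left) and the 121 fallen ones (right), by diet, with replicate numbers beside the points. Soyasaponin fish lie at 0.41 to 0.67 and -1.40 to -0.59. Prebiotic and combined fish also lie away from 0, at 0.26 to 0.58 and -0.97 to -0.30, and the control mean they are set against helped to choose the lists.

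The other 12 fish had the same feed addition on top of prebiotic: combined fish had soyasaponin and prebiotic, prebiotic fish had prebiotic only. Their values did not enter the fold changes against control, but they entered the filter and the estimate of the spread, and so had a part in which transcripts were called. In all, 104 of the 168 called transcripts (61.9%) had the same sign there, where 55.2% of all tested did. Of the 47 risen transcripts, 36 (76.6%) were higher in combined than in prebiotic fish, where 44.7% of all tested transcripts were. Of the 121 fallen, 68 (56.2%) were lower, where 55.3% of all tested were. The median log2 fold change, combined minus prebiotic, was 0.16 for the risen and -0.04 for the fallen transcripts, beside -0.04 for all tested. An unadjusted p under 0.05 in the same direction was reached by 19 risen transcripts (40.4%, where 9.98% of all tested were higher at that p) and by 13 fallen ones (10.7%, where 8.74% of all tested were lower). At an adjusted p under 0.05 in limma, 7 risen and 3 fallen transcripts passed in the same direction, where 3.81% of all tested passed, 2.73% as higher and 1.08% as lower. In the opposite direction 0 passed in limma and 2, both on the fallen list, had an unadjusted p under 0.05. This was not counted with edgeR and DESeq2.

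The fallen count depended on single prebiotic and combined fish, and the risen count moved less. Prebiotic replicates 4 and 5 had the highest scores on the first principal component of the 24 libraries, which held 31.5% of the variance, at 113 and 108 against -55.0 to 81.8 in the other fish. Without them, 94 of the 121 fallen transcripts (77.7%, where 51.0% of all tested) and 37 of the 47 risen (78.7%, where 49.0%) had the same sign. The median for the fallen transcripts was then -0.14. Leaving out single prebiotic or combined fish gave 33 to 39 of the risen transcripts. For the fallen it gave 92 without prebiotic replicate 4, 86 without combined replicate 1, 56 without combined replicate 2 and 58 to 76 without any other of these fish. Shares of all tested transcripts were not computed for these single omissions. Whether the fallen list moved apart from the other transcripts there was not tested. The difference between the lists in how often the sign recurred was not tested.

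The 10 transcripts called in both contrasts were of middle to high abundance. The 7 risen ones had means of 110 to 802 normalized counts over the 12 control and soyasaponin fish. Their log2 fold changes ran from 0.54 to 3.25 without prebiotic and from 0.51 to 3.23 with it. The 3 fallen ones had means of 252 to 2959. Their log2 fold changes ran from -2.52 to -0.78 without prebiotic and from -2.09 to -0.60 with it. The fallen one at -2.52 was not called against control by edgeR (adjusted p = 0.196) or DESeq2 (adjusted p = 0.122). It also held the highest mean, 2959, and its soyasaponin fish varied widely, with a mean of 1443 and an SD of 2155. Groups did not overlap without prebiotic in 4 of the 7 and 1 of the 3. Over all tested transcripts this was so in 0.405% as higher and 0.862% as lower. The call on the same fish favours the absence of overlap.

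A difference at least as large as that against control was found with prebiotic in 2 of the 47 risen and 0 of the 121 fallen transcripts, which choosing on the first contrast favours. The test of the difference itself, the interaction, called 0 of the 17056 transcripts in limma, with a smallest adjusted p of 0.128 and 2174 transcripts (12.7%) at an unadjusted p under 0.05. It called 0 in edgeR and 117 in DESeq2. At the unadjusted p it was reached by 101 of the 121 fallen and 26 of the 47 risen transcripts, which again were chosen on one side of this contrast.

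The mean of the control fish was the highest of the 4 diets in 118 of the 121 fallen transcripts, while it was so in 27.0% of all tested. The median log2 fold change against control over the 121 was -1.01 in soyasaponin, -0.62 in combined and -0.59 in prebiotic fish. Over the 47 risen transcripts it was 0.55, 0.52 and 0.35, and the control mean was the lowest of the 4 diets in 43, while it was so in 31.8% of all tested. These differences share the 6 control fish that entered the choice of the lists, so they are given side by side only. By choice, control lies above soyasaponin on the fallen list and below it on the risen list. The shares of all tested carry no such choice, so they are not a like baseline.

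**Figure D4:**
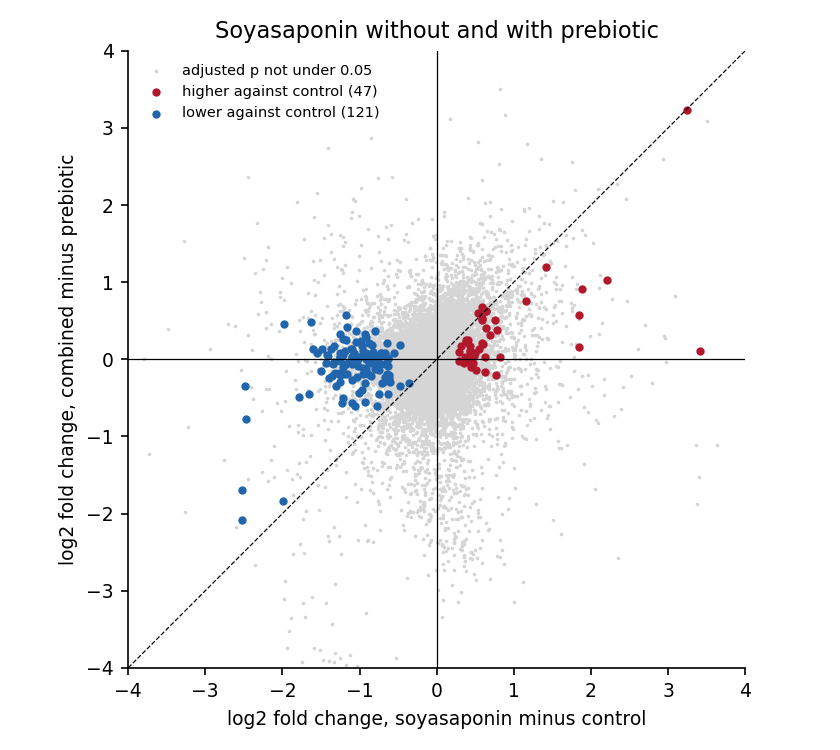
Log2 fold change, combined minus prebiotic (y axis), against log2 fold change, soyasaponin minus control (x axis), for each tested transcript, with the dashed line marking equal values and 6 transcripts outside the axes of 4 in either direction not drawn. The risen transcripts (red) have a median of 0.16 on the y axis and the fallen ones (blue) one of -0.04, and single transcripts such as LABE_00058622-RA lie on the line at 3.25 and 3.23.

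The number of called transcripts changed with the fish included. Without control replicate 3 limma called 0, with 2372 transcripts at an unadjusted p under 0.05, and neither edgeR nor DESeq2 was run on those 23 fish. The count was 4, 7 and 46 without soyasaponin replicates 6, 5 and 4, 106 without replicate 1 and 621 without replicate 2. It was 76, 43 and 82 without control replicates 1, 2 and 4, 90 without prebiotic replicate 1 and 80 without combined replicate 3. Without prebiotic replicates 4 and 5 together it was 276. A fit of the 12 control and soyasaponin fish alone called 15, of which 12 were among the 168. The size of the differences moved less. The median absolute log2 fold change of the 168 was 0.90 with all fish. It was 0.83 to 0.94 over the 12 omissions of a control or soyasaponin fish. Each of the 168 kept its sign in every omission. The 168 were chosen from these same fish, which favours both, so these values only describe them.

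The first 3 named transcripts each lost their call without control replicate 3, soyasaponin replicate 5 or soyasaponin replicate 6, with adjusted p of up to 0.068 for LABE_00058622-RA, 0.0706 for LABE_00007498-RA and 0.0706 for LABE_00037806-RA in limma. LABE_00062612-RA lost its call in 15 single omissions: any control fish, soyasaponin replicates 1, 4, 5 and 6, prebiotic replicates 1 and 2, and combined replicates 3, 5 and 6, with limma adjusted p of up to 0.114. Over all settings the log2 fold changes stayed between 2.90 and 3.56, 2.00 and 2.36, -2.86 and -2.25, and -1.76 and -1.47, in the order LABE_00058622-RA, LABE_00007498-RA, LABE_00037806-RA and LABE_00062612-RA.

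**Figure D5:**
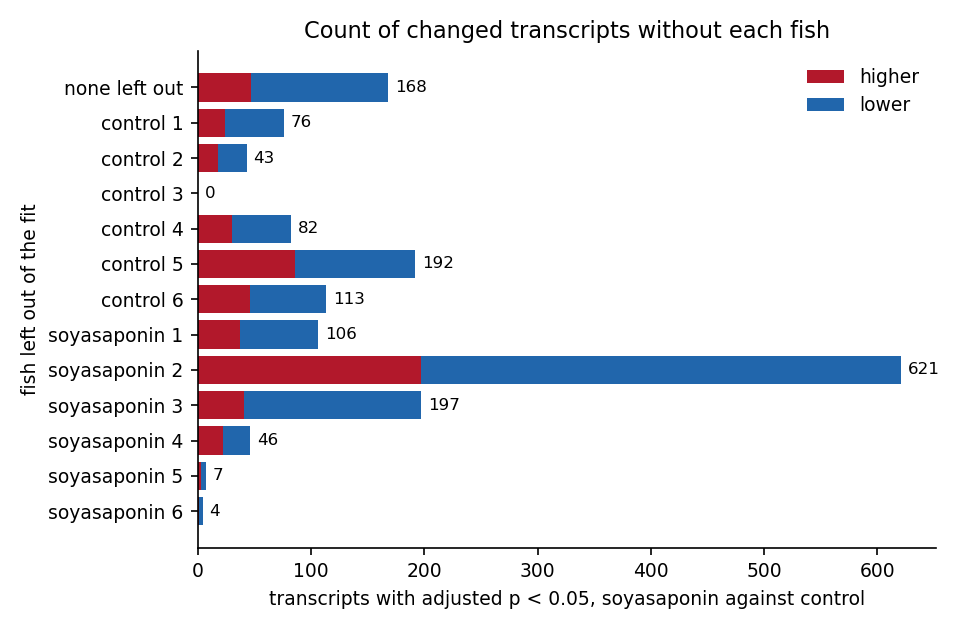
Number of transcripts with an adjusted p under 0.05 in soyasaponin against control (x axis) when each of the 12 fish is left out of the fit in turn (y axis), split into higher (red) and lower (blue). The count is 168 with all fish and runs from 0 without control replicate 3 to 621 without soyasaponin replicate 2.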

How the data were processed

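Per the labels' protocols, stranded mRNA libraries from 90 ng of hindgut RNA were sequenced as paired ends. The submitters' processing notes name cutadapt, TopHat2, Subread, featureCounts and DESeq2. Their versions, the genome build and the annotation were not given in the sources used here. Values deposited by the authors are a signal, read counts per transcript divided by a size factor per library. All 498024 values (100%) were whole multiples, within 1e-06, of the lowest value above 0 in their column, and these multiples were taken as reads.

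limma 3.58.1 (R 4.3.3, intensity trend) was fitted to log2(normalized count + 1) of the 17056 of 20751 transcripts with a mean of at least 10 over 24 fish, all 4 diets at once. Tests were two-sided, with Benjamini-Hochberg adjustment over all 17056. The pseudocount understates changes of low transcripts. edgeR 4.0.16 and DESeq2 1.42.0 on recovered reads were alternatives, and DESeq2 gave no adjusted p for 13 transcripts. Library measures used exact permutation of 924 arrangements (smallest p 0.00216). Fish were numbered within a diet in record order, which pairs none of them. In 1 simulated data set of 16930 transcripts for soyasaponin minus control, limma recovered 52.5% of 2-fold and 89.9% of 4-fold changes. Of its calls 3.42% were false. The simulation drew each value independently, without tank effects or fish that stand apart, so these rates may not hold for the real data. Transcripts were named by the rule given in the report. The lists of called transcripts come from these data, and the fish, the rule for naming and the alternatives were chosen with earlier results of these data known. Plots were drawn with matplotlib 3.10.9.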

Additional observations from a re-analysis of the deposited data

Results flagged for a closer look

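A fish stood apart from the other 5 of its diet, by Dixon's test at the 95% level, in 4 of 40 sets of 6 values examined. The nominal rate of 1 in 20 assumes independent, normally distributed values, so it cannot be set against this count. Normalized counts were tested without a log transform, and the shares of counts concern lists chosen from these fish. LABE_00058622-RA reached 614 normalized counts in soyasaponin replicate 1. LABE_00007498-RA reached 435 in combined replicate 2. Control replicate 3 had 1.16% of its counts in the 121 fallen transcripts, the highest among control fish. It is also the fish without which no transcript was called in limma. A link between the share and the loss of calls was not tested. Control replicate 6 had 0.414% of its counts in the 47 risen transcripts, the highest among control fish.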

How the results depend on the processing

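Against 168 called transcripts, quantile normalization gave 79, DESeq2 610, the 12 fish alone 15, array quality weights 1054 (439 higher, 615 lower), the first principal component as covariate 320 and the omission of prebiotic replicates 4 and 5 276. Omitting single fish gave 0 to 621. edgeR called 193, of which 148 were among the 168, and pseudocounts, filters on low values, robust moderation and the size factor covariate gave 130 to 174. Among the transcripts called without prebiotic replicates 4 and 5, 78.3% had the same sign with prebiotic, against 61.9% of the 168. The share of all tested transcripts with the same sign was not computed for that omission. The omission of single prebiotic or combined fish for the count of same signs was chosen after seeing the data. DESeq2 called 117 interactions where limma and edgeR called 0. The cause of these shifts was not tested. LABE_00062612-RA also lost its call with no filter, quantile normalization or the size factor covariate, and no named transcript changed sign. For the library measures, the lowest exact p over 72 omissions was 0.0736. No paired analysis was possible because the labels give no replicate numbers shared between diets. Depth limits transcripts with few reads, where the SE is large. Tank, gene identity and cell type markers could not be examined.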
